A study of Bombyx mori with 4 samples.

Results

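The comparison described here is between silkworm prothoracic glands held with prothoracicotropic hormone (PTTH) for 3 h and glands held with it for 1 h. It rests on 2 of the 4 libraries of the series and covers the 8547 of 14622 loci whose FPKM averaged at least 1 over the 4 libraries. FPKM counts the fragments of a locus per kilobase of its transcript, relative to the depth of its library. The rule used neither the difference between the PTTH libraries nor its direction. Still, 51 of the 8547 loci were under 1 FPKM in both PTTH libraries and are included through the control libraries.

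All glands came from Bombyx mori larvae of a commercial racial hybrid at day 4 of the fifth, last larval instar, and were first held for 30 min in Grace's insect medium. The PTTH 3 h and PTTH 1 h groups were then kept for those times in medium with 10 nM recombinant hormone. The control 3 h and control 1 h groups were kept for the same times in medium without it. Each group was 1 library made from the pooled RNA of 2 preparations, each from 12 to 18 larvae, so there were no replicates and no test between groups was possible. The members of a gland pair were divided between medium with and without hormone, and the times therefore came from different larvae. Time in culture and the larvae of the pool cannot be told apart, with hormone or without it. Bulk RNA also cannot tell a change in RNA per cell from a change in the share of a cell type.

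The prothoracic gland is the endocrine gland that makes ecdysteroids from dietary sterols during larval life, and these steroids bring about moulting and metamorphosis. PTTH is a neuropeptide from the brain. It binds the receptor tyrosine kinase Torso on the gland cells and acts through calcium, cyclic AMP and the Ras and ERK kinase cascade, and both rapid effects on enzymes and slower effects on transcription are known. A later against an earlier time under continued hormone is thus a way to look for the slower transcripts. The deposited table gives no gene names, and 0 of its 14622 identifiers matched a list of 18210 silkworm genes. Loci are therefore described by their scaffold and position, as listed in the table, and no function is assigned to any of them. For the same reason the gland could not be checked against its marker genes.

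More loci were higher than lower after 3 h with PTTH, at the 2-fold and at the 4-fold limit. Leading loci in both directions were ranked among those above 0 in both PTTH libraries that met the interval and fragment conditions given below. The 15 leading loci stood at 13.8 to 573 FPKM after 3 h, against 0.539 to 66.0 FPKM after 1 h. In 8 of them, by the log2 ratio of (FPKM + 1), the controls were within 1.5-fold of each other over the same time. So were 84.8% of all tested loci. By plain ratio XLOC_007591, among the 8, was 1.90-fold higher in control 3 h. The 10 lowest loci so ranked stood at 0.0365 to 34.1 FPKM after 3 h, against 5.11 to 171 FPKM after 1 h. In the controls 5 of these were at least 2-fold lower too by the log2 ratio of (FPKM + 1), against 1.24% of all tested loci. Many higher loci lay next to each other on a scaffold.

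Of the 8547 loci, 359 were at least 2-fold higher in PTTH 3 h than in PTTH 1 h (4.20%) and 148 were at least 2-fold lower (1.73%). The measure was the log2 ratio of (FPKM + 1), with a size of at least 1 as the limit, and this ratio understates the difference at low loci. A fold given for a single locus is the plain ratio of its FPKM values. With the further demand that the authors' confidence intervals of the 2 libraries did not overlap, 297 were higher (3.47%) and 107 lower (1.25%). Raising the limit to 4-fold, again with intervals apart, left 55 higher loci (0.644%) and 4 lower ones (0.0468%). Lowering it to 1.5-fold made the numbers nearly even, 796 higher and 778 lower. The excess of higher loci was thus a feature of the large ratios. The median log2 ratio over all 8547 loci was -0.03 and the quartiles were -0.30 and 0.23.

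How far scaling moved the balance depended on its kind. Centring on the median gave 375 higher and 136 lower loci, 73.4% of them higher. Upper-quartile scaling gave 367 and 147, with 71.4% higher. When every library was brought to the same total FPKM, 306 loci were higher and 206 lower, so that the higher loci made up 59.8% of those called, against 70.8% as deposited. That scaling shifted the median log2 ratio to -0.12, and ratios below are as deposited. The 4 libraries held about 8134930 to 10294100 fragments, as inferred from the width of the confidence limits, and the median tested locus had 248 to 268 such implied fragments in each library. Intervals from such counts do not include the difference between pools of larvae.

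**Figure D1:**
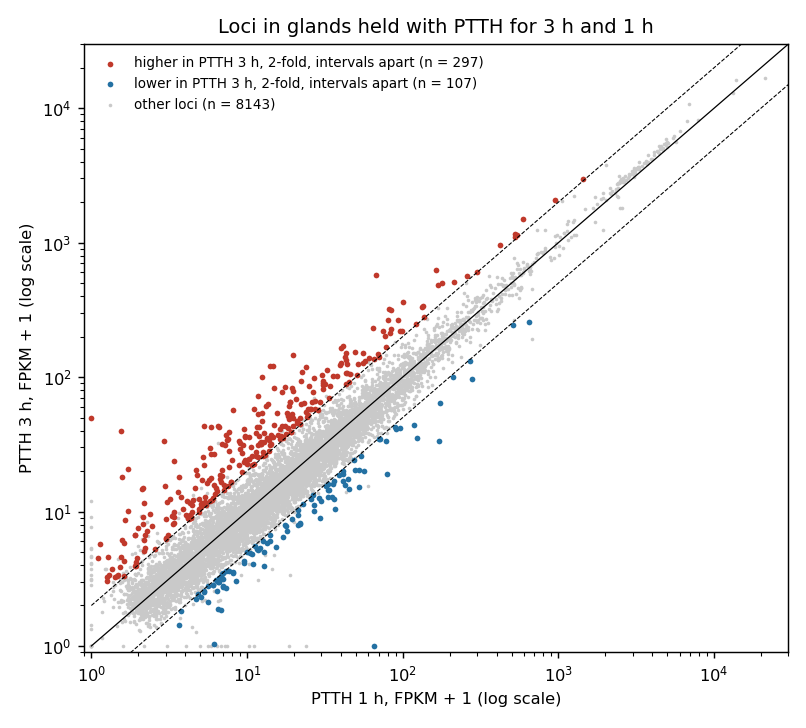
FPKM + 1 of the 8547 loci in PTTH 3 h (vertical, log scale) against PTTH 1 h (horizontal, log scale), 1 point per locus. The solid line marks equal values and the dashed lines 2-fold differences. With intervals apart 297 loci lie above the upper dashed line and 107 below the lower one, and 55 and 4 of them pass 4-fold.

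Among loci above 0 in both PTTH libraries, with intervals apart and at least 20 fragments, the highest ratio belonged to XLOC_009484, at nscaf2953 445421 to 446159. It had 38.9 FPKM in PTTH 3 h (limits 35.5 to 42.3), against 0.539 FPKM in PTTH 1 h (0.131 to 0.947), which is 72.2-fold. Without hormone it had 6.59 FPKM at 3 h and 0.250 at 1 h. It was therefore higher at 3 h with and without hormone, with log2 ratios of 4.70 ± 0.20 and 2.60 ± 0.22, where the errors are SE from counting alone. The 1 h values rest on 6.99 implied fragments with PTTH and 3.00 in the control, so both folds are loosely fixed.

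The next loci in order had low values in 3 of the 4 libraries. XLOC_007591, at nscaf2887 1527341 to 1529161, had 19.7 FPKM in PTTH 3 h and 0.714 FPKM in PTTH 1 h, with 1.76 FPKM in control 3 h and 0.929 FPKM in control 1 h. On the same scaffold, 1482865 to 1484888 had 16.9 FPKM in PTTH 3 h and 0.570 FPKM in PTTH 1 h, with 1.62 and 1.43 FPKM in control 3 h and control 1 h. In both, PTTH 3 h stood apart and the intervals of the remaining 3 libraries overlapped one another. At nscaf3022 201589 to 211571 the values were 32.4 FPKM in PTTH 3 h (29.9 to 35.0) and 1.94 FPKM in PTTH 1 h (1.31 to 2.57), a 16.7-fold difference. Its control libraries had 3.69 FPKM at 3 h and 2.86 at 1 h, so the level without hormone differed by 1.29-fold. A second locus of that scaffold, 226782 to 228234, had 42.2 FPKM in PTTH 3 h and 4.32 FPKM in PTTH 1 h. Unlike its neighbour it was also 2.12-fold higher in control 3 h, at 9.67 FPKM against 4.56 FPKM in control 1 h, with intervals apart.

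Loci of nscaf2888 joined large ratios to good coverage. The locus at 7359787 to 7380263 had 119 FPKM in PTTH 3 h and 13.0 FPKM in PTTH 1 h, with a log2 ratio of 3.10 ± 0.06. Its control libraries had 17 FPKM at 3 h and 15.0 at 1 h. The adjoining locus at 7341245 to 7356400 had nearly the same levels, 120 FPKM in PTTH 3 h and 13.6 FPKM in PTTH 1 h, with 15.0 FPKM in control 3 h and 12.6 FPKM in control 1 h. Only PTTH 3 h was high at either of them. The more distant locus at 4905668 to 4917235 had another order of libraries, 22.8 FPKM in PTTH 3 h and 2.39 FPKM in PTTH 1 h, beside 0.228 FPKM in control 3 h and 0.339 FPKM in control 1 h. There the PTTH 1 h library already stood above both controls, with intervals apart, and the level in PTTH 3 h was a further 9.54-fold higher.

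On nscaf3066 3 neighbouring loci belonged to the leading 15. At 1997102 to 2009252 PTTH 3 h had 98.8 FPKM and PTTH 1 h had 11.5 FPKM, and the ratio was 8.58-fold. The short locus at 1923972 to 1924524 had 144 FPKM in PTTH 3 h and 18.6 FPKM in PTTH 1 h, and the one at 2016661 to 2017844 had 14 and 1.14 FPKM in PTTH 3 h and PTTH 1 h. Their ratios in the control libraries, 3 h over 1 h, were 1.59-fold, 1.08-fold and 1.39-fold. At nscaf2865 1741028 to 1742307 the PTTH 3 h library had 573 FPKM, but the limits ran from 446 to 700 FPKM, a width that implies 81.5 fragments. The PTTH 1 h value there was 66.0 FPKM with limits of 19.3 to 113.

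The remaining 3 of the 15 differed over time without hormone as well. At nscaf1898 12869887 to 12891826 the level with PTTH was 13.8 FPKM at 3 h and 1.1 at 1 h, and without it 6.91 FPKM at 3 h and 1.11 at 1 h. At nscaf3026 2396447 to 2401216 the level with PTTH was 55.5 FPKM at 3 h and 7.17 at 1 h, and without it 38.9 FPKM at 3 h and 12.2 at 1 h. At nscaf2930 4749872 to 4754183 the PTTH values were 41.2 FPKM at 3 h and 4.85 at 1 h, and the control values were 54.7 FPKM at 3 h and 13.8 at 1 h. The last 2 loci had their lowest value in PTTH 1 h, below control 1 h with intervals apart. A low starting value with hormone thus forms part of their PTTH ratio.

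**Figure D2:**
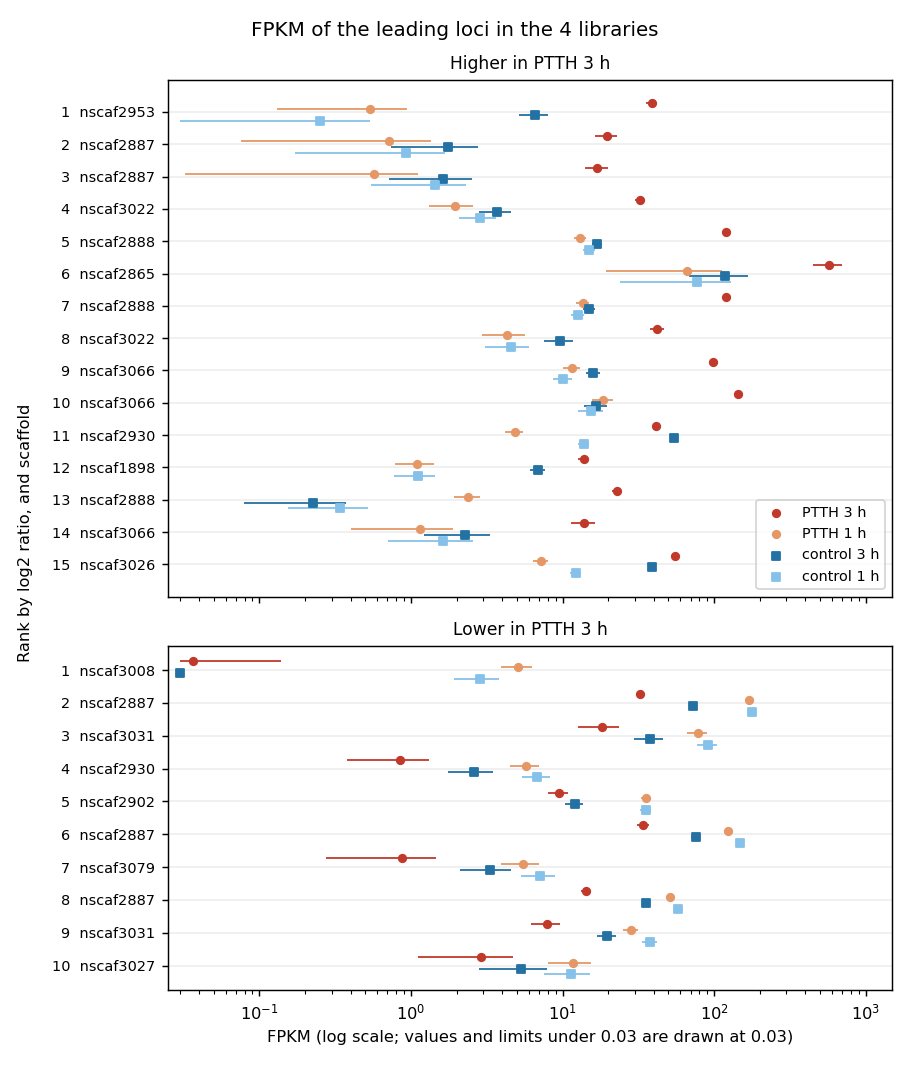
FPKM (log scale) of the 15 loci with the largest and the 10 with the smallest ratio of PTTH 3 h over PTTH 1 h, in all 4 libraries, with points for the values and lines for the authors' confidence limits. Loci were ranked among those above 0 in both PTTH libraries, with intervals apart and at least 20 fragments. They run from the most extreme ratio downward and are labelled by scaffold. PTTH 3 h lies to the right of the other libraries in 14 of the 15 upper loci, while in the lower loci both 1 h libraries lie to the right of both 3 h libraries.

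Among loci higher at 2-fold with intervals apart, the largest differences in FPKM were at abundant loci with modest ratios. At nscaf2828 5431044 to 5431251 PTTH 3 h had 2988 FPKM (2866 to 3110) and PTTH 1 h had 1426 FPKM (1337 to 1515), with 1375 FPKM in control 3 h and 926 FPKM in control 1 h. At nscaf2986 3421634 to 3431850 the level with PTTH was 2078 FPKM at 3 h and 947 at 1 h, and without it 1491 FPKM at 3 h and 906 at 1 h. In both, the control libraries differed in the same direction, by 1.49-fold and 1.65-fold. At nscaf2176 1202422 to 1208982 PTTH 3 h had 1489 FPKM and PTTH 1 h 588 FPKM, against 443 FPKM in control 3 h and 395 FPKM in control 1 h. The locus at nscaf2891 917170 to 922889 was similar, with 1158 FPKM in PTTH 3 h and 523 FPKM in PTTH 1 h, beside 442 FPKM in control 3 h and 409 FPKM in control 1 h. At the loci on nscaf2176 and nscaf2891 the controls of the times differed by 1.12-fold and 1.08-fold. The short locus at nscaf3063 2169612 to 2169891 had 1132 FPKM in PTTH 3 h (916 to 1349) and 542 FPKM in PTTH 1 h (382 to 702), from 109 and 46.0 fragments. Its controls were in the other order, with 446 FPKM in control 3 h and 818 FPKM in control 1 h. At equal totals the PTTH log2 ratios on nscaf2828 and nscaf3063 were 0.97 and 0.96, under the limit.

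Of the 100 loci with the highest mean FPKM, 1 was at least 2-fold higher in PTTH 3 h and 0 were lower. Over all tested loci the shares were 4.20% and 1.73%, so few calls fall among 100 loci in any case. The 1 higher locus was the one at nscaf2828 above. That call was lost at equal totals, as given above. The median log2 ratio of the 100 loci was 0.15 and the range was -0.65 to 1.07. By level, the share of loci higher with intervals apart was 3.76% at a mean of 100 FPKM or more, against 3.47% over all. It was 3.91% at 20 to 100 FPKM, 3.71% at 5 to 20 FPKM and 2.41% at 1 to 5 FPKM. Intervals are wider in the last class, with a median of 84.0 implied fragments in both PTTH libraries together.

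Under the same conditions the lowest ratio belonged to XLOC_010918, at nscaf3008 1217847 to 1222219. PTTH 3 h had 0.0365 FPKM from 0.504 implied fragments and PTTH 1 h had 5.11 FPKM (3.94 to 6.28). Control 3 h was listed at 0 and control 1 h had 2.86 FPKM (1.93 to 3.79), so the 3 h libraries were at or near 0 with and without hormone. XLOC_007553, at nscaf2887 472569 to 473901, had 32.6 FPKM in PTTH 3 h (30.4 to 34.7) and 171 FPKM in PTTH 1 h (166 to 176), with a log2 ratio of -2.36 ± 0.05. Its control libraries had 73.0 FPKM at 3 h and 178 at 1 h, a log2 ratio of -1.28 ± 0.04. The difference between the times was thus present in both kinds of library and larger with PTTH, by 1.08 on the log2 scale, a value with no replicate error.

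The other low-ratio loci had the same arrangement. At nscaf3031 3406084 to 3406360 the level with PTTH was 18.1 FPKM at 3 h and 77.8 at 1 h, and without it 37.8 FPKM at 3 h and 90.8 at 1 h. The next locus on that scaffold, 3406904 to 3409370, had 7.95 FPKM in PTTH 3 h and 28.3 FPKM in PTTH 1 h, with 19.8 and 37.7 FPKM in control 3 h and control 1 h. The gap between these loci was under 1 kb, and whether they belong to 1 transcript was not tested. At nscaf2930 167067 to 170931 PTTH 3 h had 0.847 FPKM and PTTH 1 h 5.78 FPKM, against 2.61 FPKM in control 3 h and 6.80 FPKM in control 1 h. At nscaf2902 5081951 to 5083086 the PTTH values were 9.43 FPKM at 3 h and 35.7 at 1 h, and the control values were close to them, 12.0 FPKM at 3 h and 35.5 at 1 h. The loci at nscaf3079 1715664 to 1718998 and nscaf3027 3492144 to 3495084 were low, at 0.874 and 2.92 FPKM in PTTH 3 h and 5.49 and 11.8 FPKM in PTTH 1 h. Their controls had 3.32 and 5.34 FPKM at 3 h and 7.14 and 11.4 FPKM at 1 h. In these 2 only 8.48 and 10.5 fragments lay behind the PTTH 3 h values.

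Among loci lower at 2-fold with intervals apart, the largest difference in FPKM was at nscaf2930 99035 to 103148. It had 256 FPKM in PTTH 3 h and 644 FPKM in PTTH 1 h, beside 280 FPKM in control 3 h and 576 FPKM in control 1 h. At nscaf2931 942070 to 944291 the values were 241 FPKM in PTTH 3 h and 510 FPKM in PTTH 1 h, with 328 FPKM in control 3 h and 677 FPKM in control 1 h. The difference with and without hormone was 2.52-fold and 2.06-fold on nscaf2930, and 2.11-fold and 2.06-fold on nscaf2931, lower at 3 h in each case. The locus at nscaf3005 862420 to 863479 was 2.90-fold lower with PTTH, at 95.8 FPKM in PTTH 3 h and 278 FPKM in PTTH 1 h, and 1.43-fold lower in the controls, at 207 FPKM in control 3 h and 297 FPKM in control 1 h. At nscaf2803 14721 to 15288 the level with PTTH was 130 FPKM at 3 h and 270 at 1 h, far above the 27.2 FPKM of control 3 h and 91.7 FPKM of control 1 h.

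Values listed at 0 account for some of the size-only calls. Of the 359 higher loci 15 were listed at 0 in PTTH 1 h, and of the 148 lower loci 15 were listed at 0 in PTTH 3 h. Most rested on very few fragments, with a median of 1.51 in the higher and 1.01 in the lower ones, and only 1 in each direction had intervals apart. The higher one, at nscaf2204 849306 to 849543, had 48.9 FPKM in PTTH 3 h from 12.0 fragments, and its value in PTTH 1 h was listed as 0. Its control values were 4.73 FPKM at 3 h and 6.99 at 1 h. The lower one, at nscaf2964 454368 to 456443, had a listed value of 0 in PTTH 3 h, against 64.0 FPKM in PTTH 1 h from 177 fragments. In the controls it was listed at 0 at 3 h and had 0.193 FPKM at 1 h. Of the 297 higher loci with intervals apart, 30 were under 1 FPKM in PTTH 1 h, and of the 107 lower ones 6 were under 1 FPKM in PTTH 3 h. Each of these met the filter through higher values in other libraries. The same share over all tested loci is not given here, so the counts are a description only.

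At the limit of the rule the median log2 ratio was 0.10 just above and 0.02 just below, against -0.03 over all tested loci. The 89 loci with a mean of 1 to 1.1 FPKM had medians of 1.06 FPKM in PTTH 3 h and 0.868 FPKM in PTTH 1 h. Of these 89 loci, 4 were called higher at 2-fold and 0 lower, where 4.20% and 1.73% of all tested loci were. The 92 loci just below, at a mean of 0.9 to 1 FPKM, had medians of 0.922 FPKM in PTTH 3 h and 0.846 FPKM in PTTH 1 h, and 2 would have been higher and 2 lower. The locus nearest above the limit, nscaf1898 10671348 to 10679315, had 0.757 FPKM in PTTH 3 h and 0.839 FPKM in PTTH 1 h. The nearest below, nscaf1681 5416570 to 5432106, had 0.454 FPKM in PTTH 3 h and 0.409 FPKM in PTTH 1 h.

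How much of the difference between the times is also present without hormone was asked by setting the PTTH ratio of each locus beside that of the controls. No library is common to both comparisons, but at each time the glands with and without hormone were members of the same pairs. Of the 8547 loci, 202 were at least 2-fold higher in control 3 h than in control 1 h (2.36%) and 106 were lower (1.24%). With intervals apart the numbers were 149 higher (1.74%) and 61 lower (0.714%). The equal-total scaling gave 161 higher and 157 lower in the controls, and centring on the median gave 172 and 129. The higher loci were 50.6%, 57.1% and, as deposited, 65.6% of the control calls.

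The loci higher with PTTH leaned the same way in the controls, by less. The 297 loci higher in PTTH 3 h with intervals apart had a median log2 ratio of 1.42 with PTTH and 0.52 in the controls, where all tested loci had a median of 0.06 in the controls. Their median levels were 33.6 FPKM in PTTH 3 h and 10.3 FPKM in PTTH 1 h, beside 16.7 FPKM in control 3 h and 10.9 FPKM in control 1 h. In the controls 62 of them (20.9%) also passed 2-fold toward 3 h, against 2.36% of all loci, and 72 (24.2%) were 1.5-fold to 2-fold higher, against 7.49% of all. A further 151 (50.8%) were within 1.5-fold in the controls, against 84.8% of all, and 5 (1.68%) were at least 2-fold lower, against 1.24% of all. With intervals apart on both sides, 60 loci were higher over time with and without PTTH, which is 20.2% of the PTTH list and 40.3% of the control list.

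The 107 lower loci had the mirrored pattern. Their median log2 ratio was -1.19 with PTTH and -0.54 in the controls. Median levels were 6.91 FPKM in PTTH 3 h and 18.6 FPKM in PTTH 1 h, beside 12.0 FPKM in control 3 h and 17.4 FPKM in control 1 h. In the controls 17 (15.9%) were at least 2-fold lower, against 1.24% of all loci, and 56 (52.3%) were within 1.5-fold, against 84.8% of all. None was at least 2-fold higher in the controls, a class that held 2.36% of all loci. With intervals apart on both sides the 17 shared loci were 15.9% of the PTTH list and 27.9% of the control list.

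Across all 8547 loci the ratios with and without PTTH had Pearson's r of 0.406 and Spearman's rho of 0.459. This describes loci and not replicates, and the libraries of a time share their larvae. Because the PTTH lists were chosen by extreme PTTH ratios, their smaller control ratios are in part fixed by the choice.

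**Figure D3:**
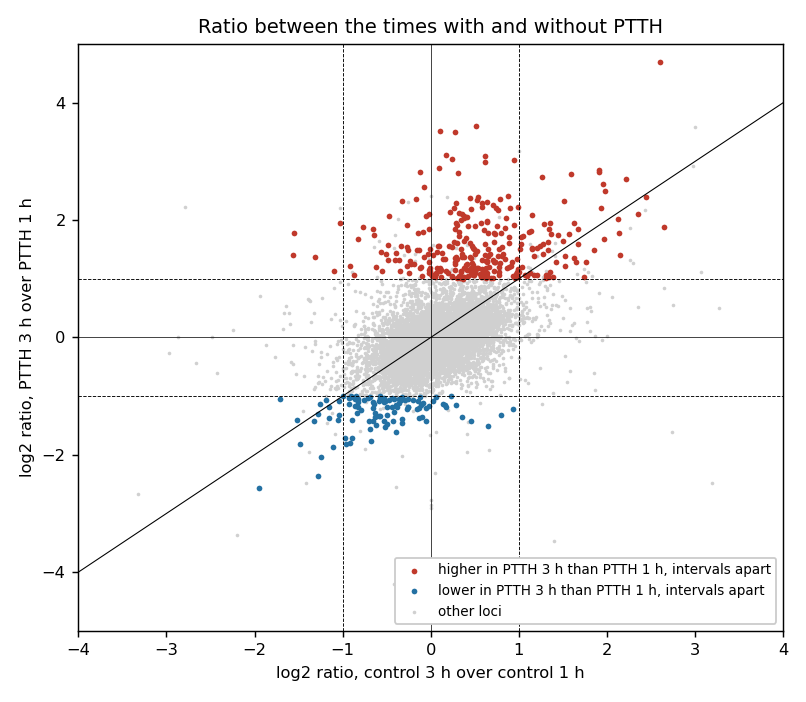
Log2 ratio of PTTH 3 h over PTTH 1 h (vertical) against control 3 h over control 1 h (horizontal), 1 point per locus, with 4 loci outside the axes. The diagonal marks equal ratios and dashed lines mark 2-fold. Of the 297 higher loci 243 (81.8%) had a ratio above 0 in the controls, against 56.7% of all loci, and of the 107 lower loci 95 (88.8%) had one below 0, against 43.2% of all.

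The difference of the log2 ratios, PTTH minus control, was at least 1 for 271 loci (3.17%) and at most -1 for 199 (2.33%). Centred on its median, the difference passed those limits at 332 and 135 loci. The loci named next were chosen for an extreme difference, so their values are a description. They were taken from called loci with PTTH intervals apart and values above 0 in all 4 libraries. At least 20 fragments were required in the PTTH libraries together and in the controls together. This left out the loci at nscaf2204 849306 to 849543 and nscaf2964 454368 to 456443, whose differences were 6.12 and -5.77. Besides those on nscaf2887, nscaf3022 and nscaf2888 above, the most positive were at nscaf2853 1131823 to 1133652 and nscaf2575 4345299 to 4350998. The locus on nscaf2853 had 112 FPKM in PTTH 3 h (97.2 to 126) and 31.7 FPKM in PTTH 1 h (23.8 to 39.7), but 11.7 FPKM in control 3 h (7.05 to 16.3) and 36.3 FPKM in control 1 h (27.4 to 45.2). The 1 h libraries overlapped, and the 3 h libraries lay on opposite sides of them.

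The locus on nscaf2575 had a different arrangement, with its highest value in control 1 h. It had 3.30 FPKM in PTTH 3 h and 0.628 FPKM in PTTH 1 h, against 5.01 FPKM in control 3 h and 16.7 FPKM in control 1 h. Another locus of that scaffold with this arrangement, at 4370066 to 4374241, had 2.24 FPKM in PTTH 3 h and 0.260 FPKM in PTTH 1 h, against 4.41 FPKM in control 3 h and 12.4 FPKM in control 1 h. The 3 h libraries of both were closer to each other than the 1 h libraries were. At nscaf1681 2093311 to 2096370 the levels with hormone were high throughout, 565 FPKM in PTTH 3 h and 258 FPKM in PTTH 1 h, against 53.3 FPKM in control 3 h and 116 FPKM in control 1 h.

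On the negative side, the 5 most extreme loci under these conditions were lower over time with PTTH. They had higher values in control 3 h than in control 1 h. At nscaf2902 6010843 to 6011518 the level with PTTH was 18.9 FPKM at 3 h and 55.8 at 1 h, and without it 77.5 FPKM at 3 h and 49.0 at 1 h. At nscaf3089 219658 to 226146 the PTTH values were 10.9 FPKM at 3 h and 28.9 at 1 h, and the control values 46.2 FPKM at 3 h and 26.1 at 1 h. The longer locus at nscaf2827 367795 to 381714 had 63.1 FPKM in PTTH 3 h and 171 FPKM in PTTH 1 h, beside 260 FPKM in control 3 h and 190 FPKM in control 1 h. In these 3 loci the 1 h libraries differed far less than the 3 h libraries, and the intervals of the times were apart in both kinds of library. The loci at nscaf2844 34282 to 41273 and nscaf2887 13915 to 14395 were low, with 2.49 and 1.75 FPKM in PTTH 3 h and 7.12 and 6.01 FPKM in PTTH 1 h. Their controls had 19.4 and 9.13 FPKM at 3 h and 9.71 and 6.92 FPKM at 1 h. On nscaf2887 the control intervals overlapped, at 6.76 to 11.5 and 4.80 to 9.05 FPKM.

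Loci that were higher in PTTH 3 h often adjoined one another. Of the 359, 137 (38.2%) had a directly neighbouring tested locus that was also at least 2-fold higher, and 23.8% of all their neighbours were, where 4.20% of all tested loci are. Of the 148 lower loci 20 (13.5%) had a lower neighbour, and 7.91% of their neighbours were lower, against 1.73% of all. Runs of at least 3 neighbours in the same direction numbered 17 for higher loci, with 59 loci, and 1 for lower loci, with 4. In these 18 runs 60 of the 63 loci had intervals apart. No neighbouring loci in them overlapped, the median gap was 11452 bases and 9 of 45 gaps were under 5 kb. Whether close neighbours are pieces of 1 transcript or share reads was not tested, and when neighbours under 5 kb apart were counted as 1, 11 runs of higher loci were left.

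In 12 of the 18 runs no locus was called in the same direction in the controls. These include the 5 runs with the highest median ratios. Of all tested loci only 2.36% were 2-fold higher and 1.24% lower in the controls, so the lack of such a locus says little. The calls use the log2 ratio of (FPKM + 1). By plain ratio some loci of these runs did pass 2-fold in the controls with intervals apart. They were 2.02-fold and 2.06-fold higher on nscaf2833 and 2.08-fold higher on nscaf2847. The run on nscaf2888 holds the loci described above and one at 7387134 to 7389526. This one had 3.53 FPKM in PTTH 3 h and 0.106 FPKM in PTTH 1 h, the last from 2.49 fragments. Its control values were 0.366 FPKM at 3 h and 0.0527 at 1 h, so it passed the filter through PTTH 3 h. On nscaf2852 the loci at 1791482 to 1793125, 1813686 to 1828774 and 1832974 to 1853050 were 5.05-fold, 4.89-fold and 5.22-fold higher in PTTH 3 h. The last of them had 119 FPKM in PTTH 3 h and 22.7 FPKM in PTTH 1 h, beside 33.4 FPKM in control 3 h and 23.0 FPKM in control 1 h, and rested on 11438 fragments in PTTH 3 h. The 3 ratios were thus close to each other over levels of 61.9 to 119 FPKM in PTTH 3 h.

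On nscaf1898, 4 loci between 1728341 and 1760048 were 3.79-fold to 5.02-fold higher in PTTH 3 h. The last, at 1755440 to 1760048, had 83.5 FPKM in PTTH 3 h and 16.6 FPKM in PTTH 1 h, beside 23.2 FPKM in control 3 h and 13.9 FPKM in control 1 h. The locus before it, from 1744377, had similar levels, 76.8 FPKM in PTTH 3 h and 15.6 FPKM in PTTH 1 h, from only 24.5 and 4.5 fragments. On nscaf2970 the run was led by the locus at 1271129 to 1297127, at 53.4 FPKM in PTTH 3 h and 11.4 FPKM in PTTH 1 h, with 10.9 FPKM in control 3 h and 9.25 FPKM in control 1 h. Its other members rested on under 20 fragments and passed the filter through PTTH 3 h, at 4.72 and 9.14 FPKM. Each was under 1 FPKM in the remaining libraries. That scaffold had 12 higher loci among 69 tested (17.4%), the highest share of the 53 scaffolds with at least 50 tested loci.

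A pair of runs had PTTH values above the controls at both times. At nscaf2674 5609603 to 5610047 the 1 h intervals overlapped, at 20.6 to 38.6 FPKM with PTTH and 16.6 to 33.9 in the control. On nscaf2674 the loci at 5596413 to 5598183, 5609603 to 5610047 and 5627420 to 5640488 had 105, 88.9 and 123 FPKM in PTTH 3 h and 42.1, 29.6 and 51.0 FPKM in PTTH 1 h. Their control values were 19.9 to 26.4 FPKM at 3 h and 25.1 to 31.1 FPKM at 1 h, so that without hormone all 3 were slightly lower at the later time, 1 of them with intervals apart. On nscaf2838, 3 loci between 156546 and 185118 were 2.09-fold to 2.52-fold higher in PTTH 3 h, and 1 of them had a log2 ratio of 0.95 at equal totals. The first of these had 337 FPKM in PTTH 3 h and 134 FPKM in PTTH 1 h, against 35.3 FPKM in control 3 h and 49.8 FPKM in control 1 h.

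The longest run was on nscaf2795, where 8 consecutive tested loci between 1615443 and 1682261 were higher. They spanned 66.8 kb, and in 4 of them the end lay 771 bases from the start. Log2 ratios of (FPKM + 1) were 1.19 to 2.62 with PTTH and 0.79 to 2.35 in the controls, where 5 of the 8 passed 1. By plain ratio the 8 loci were 1.83-fold to 6.78-fold higher in control 3 h, each with intervals apart. The locus at 1681490 to 1682261 had 82.3 FPKM in PTTH 3 h and 13.9 FPKM in PTTH 1 h, beside 72.0 FPKM in control 3 h and 17.5 FPKM in control 1 h. The one at 1656057 to 1656828 was close to it, with 71.0 FPKM in PTTH 3 h and 10.7 FPKM in PTTH 1 h, beside 62.6 FPKM in control 3 h and 15.4 FPKM in control 1 h. By contrast 1644957 to 1645728 had 38 FPKM in PTTH 3 h and 6.62 FPKM in PTTH 1 h, but 13.7 FPKM in control 3 h and 7.49 FPKM in control 1 h. Loci of equal span may share sequence, and how the authors' counting split reads among them is not given in the sources used here, so their separate values are uncertain.

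By the log2 ratio of (FPKM + 1), some loci were 2-fold higher in the controls in other runs too. These higher runs were on nscaf1681, nscaf2891, nscaf3055 and nscaf3034. On nscaf3055 that held for 2 of 3 loci between 561501 and 699135, and on nscaf3034 for 1 of 3 loci between 337474 and 353182. On nscaf1681, 4 loci between 957067 and 1097609 were 2.18-fold to 3.73-fold higher with PTTH, and 2 of them passed the 2-fold limit in the controls too. Brought to equal total FPKM, 2 of these 4 loci were under 2-fold with PTTH, at log2 ratios of 0.98 and 0.96. On nscaf2891 the locus at 322852 to 327402 had 123 FPKM in PTTH 3 h and 38.5 FPKM in PTTH 1 h, and nearly the same levels without hormone, 108 FPKM in control 3 h and 37.4 FPKM in control 1 h. Its neighbours were 2.08-fold and 2.05-fold higher in PTTH 3 h, and at equal totals both were under the limit, at log2 ratios of 0.92.

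The single run of lower loci was on nscaf2887, from 472569 to 584977. It begins with XLOC_007553 and goes on with 519753 to 520308, 534297 to 568087 and 579306 to 584977. The locus at 534297 to 568087 had 14.3 FPKM in PTTH 3 h (13.3 to 15.3) and 51.0 FPKM in PTTH 1 h (49.0 to 53.0), with 35.6 FPKM in control 3 h and 57.6 FPKM in control 1 h. The one at 579306 to 584977 had 34.1 FPKM in PTTH 3 h and 123 FPKM in PTTH 1 h, with 75.8 FPKM in control 3 h and 148 FPKM in control 1 h. All 4 were lower at 3 h in the controls as well, by log2 ratios of -1.28 to -0.50, and only the first reached 2-fold there. The same scaffold also carries the higher loci at 1482865 to 1484888 and 1527341 to 1529161.

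**Figure D4:**
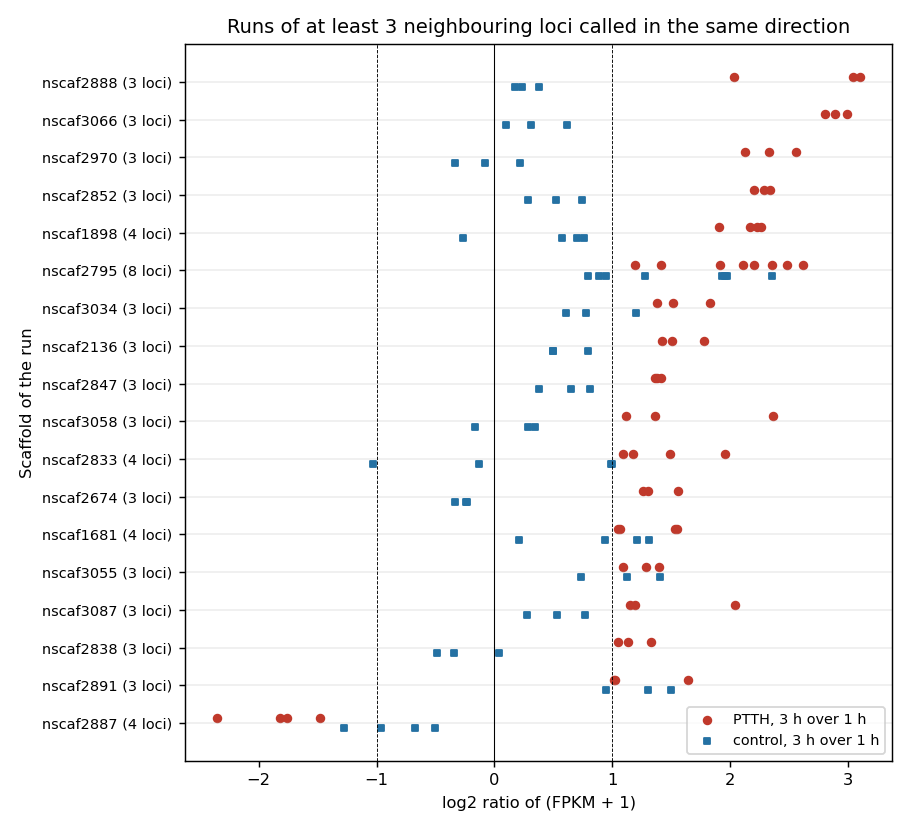
Log2 ratios of (FPKM + 1), 3 h over 1 h, for the loci of each of the 18 runs of at least 3 neighbours called in the same direction, with PTTH (circles) and in the controls (squares). Runs are labelled by scaffold and ordered by the median PTTH ratio. In the 4 uppermost runs PTTH ratios of 2.04 and more stand beside control ratios of at most 0.74, while on nscaf2795, nscaf3034, nscaf1681, nscaf3055 and nscaf2891 some control ratios also pass 1.

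Higher and lower loci had different median spans, where the span of a locus is its end minus its start. The median span was 4978 bases in the 297 higher loci and 2357 bases in the 107 lower ones, against 4524 bases over all tested loci. Of the 1871 loci spanning 10 to 30 kb, 87 (4.65%) were higher and 8 (0.428%) lower in PTTH 3 h with intervals apart. Of the 2053 loci spanning 1 to 3 kb, 54 (2.63%) were higher and 34 (1.66%) lower. Under 1 kb the shares were 4.63% and 2.40% of 1209 loci. The share of lower loci was thus smaller in each longer class up to 30 kb, although longer loci had more fragments and so narrower intervals, with a median of 879 at 10 to 30 kb and 117 under 1 kb in the PTTH libraries together.

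The controls had the same order for lower loci, from 2.15% under 1 kb to 0.160% at 10 to 30 kb. Their median log2 ratio also went up with span, from -0.05 under 1 kb to 0.19 at 10 to 30 kb, and the PTTH medians were -0.08 and 0.04. Of the 128 loci of 30 kb or more, 3 were higher and 1 lower in PTTH 3 h. The higher ones include nscaf2889 964601 to 1009276, with 106 FPKM in PTTH 3 h and 43.0 FPKM in PTTH 1 h, and the lower one is the locus at nscaf2887 534297 to 568087.

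**Figure D5:**
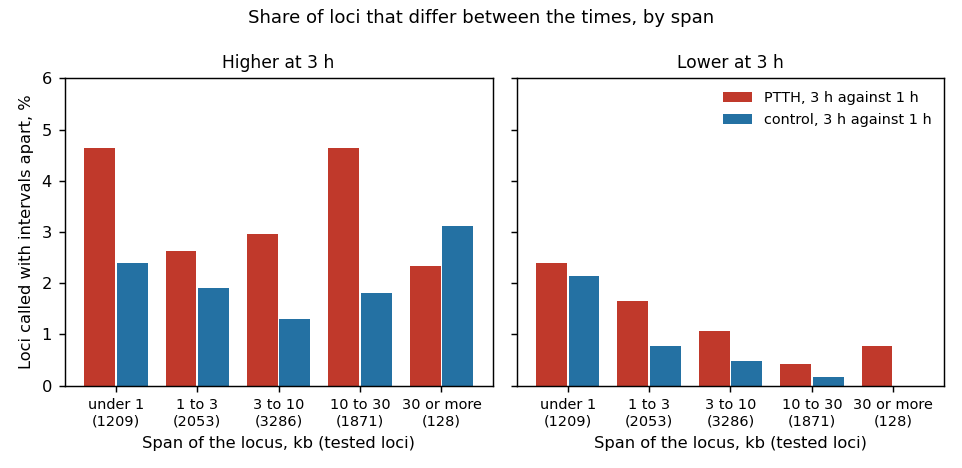
Percentage of tested loci that were at least 2-fold higher (left) or lower (right) at 3 h than at 1 h with intervals apart, by span of the locus in kb, for PTTH and control libraries; the number of tested loci stands under each class. With PTTH 4.65% of loci of 10 to 30 kb were higher and 0.428% lower, against 4.63% and 2.40% under 1 kb.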

How the data were processed

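RNA of silkworm prothoracic glands was sequenced in 4 groups of 1 library. CASAVA 1.8.0, TopHat and SAMtools are listed, without roles, in the submitters' processing notes, and Cuffdiff is named by the deposited table. For 14622 loci the authors deposited FPKM values, each between a pair of confidence limits. Not given in the sources used here are the build and annotation, how libraries were scaled, the kind of limit and whether starts count from 0 or 1. The table's 5 ratio columns were not used.

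From these values the log2 ratio of (FPKM + 1) was computed wherever the 4 libraries averaged 1 FPKM or more, at 8547 loci. A locus was called at 2-fold, without a test. Folds are plain ratios of FPKM. If a limit lies 2 Poisson standard deviations from its value, it gives the implied fragments and a counting SE; limits and SE cover counting error only. Named loci are the 15 highest and 10 lowest ratios among loci above 0 in both PTTH libraries, with intervals apart and at least 20 fragments. Added to them are the 5 largest FPKM differences each way among loci called with intervals apart, runs of at least 3 neighbours, the 5 most extreme differences from the control ratio each way, and called loci with opposite control calls. Differences from the control ratio were ranked among called loci meeting the conditions above that were also above 0 in both controls. At least 20 fragments were required in the controls together. Identifiers are printed for 2 loci each way. Loci listed at 0 were counted, and 1 is named in each direction. The members, lists and rules were chosen with earlier results of these data known. Alternatives were other pseudocounts, filters, scalings, thresholds, intervals and fragment minimums. Calling was tested on simulated data with known ratios. The planted differences were larger than the 2-fold limit, at well-covered loci and with counting error only. Low loci and differences between pools were therefore not covered. Python 3.11.15, numpy 2.4.6, pandas 2.3.3 and matplotlib 3.10.9 were used.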

Additional observations from a re-analysis of the deposited data

Results flagged for a closer look

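At 4 loci the libraries with and without PTTH differed between the times in opposite directions, each by at least 2-fold and with intervals apart. They are among the 297 loci higher with PTTH, where 0.714% of all tested loci were that much lower in the controls. The difference between the 2 ratios was not tested, since each group is 1 library. The PTTH time ratio minus the control time ratio, on the log2 scale, was 3.34 at nscaf2853 1131823 to 1133652 and 2.23 at nscaf1681 2093311 to 2096370. It was 2.96 at nscaf2575 4345299 to 4350998 and 2.67 at nscaf2575 4370066 to 4374241. All 4 were higher in PTTH 3 h than in PTTH 1 h and lower in control 3 h than in control 1 h. The PTTH 1 h values on nscaf2575 rest on 8.49 and 3.50 implied fragments.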

How the results depend on the processing

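No paired analysis was possible because each group is 1 library. With a pseudocount of 0.1 FPKM the lower loci over time with PTTH numbered 276, control loci 310 higher and 182 lower, and negative differences between the ratios 328. With 5 FPKM the numbers were 202 higher and 55 lower with PTTH, 91 higher and 48 lower in the controls, and 148 positive and 65 negative differences. At 1.5-fold they were 796 and 778 with PTTH, 842 and 457 in the controls, and 658 and 910 for the differences. At 4-fold they were 66 and 17, 24 and 11, and 56 and 26. A mean of at least 5 FPKM left 131 negative differences, intervals apart left 116 of these (in either time comparison) and 61 lower control loci, and 20 implied fragments left 66 lower control loci. When called neighbours under 5 kb apart were counted as 1, 11 runs of higher loci were left. The remaining counts stayed within 1.5 times of those reported under every other setting, including no filter, loci at 0 left out, centring, upper-quartile and equal-total scaling. The 5 kb rule, and the scalings as applied to runs, were chosen after seeing the data. For the higher loci with PTTH this covers every setting but 5 FPKM, 1.5-fold and 4-fold. Of 98 loci in the named sets and runs, 27 were under 2-fold with 5 FPKM and 8 with equal totals. Direction was no check here, since a pseudocount cannot change it. The scalings also shifted ratios too little to reverse a locus called at 2-fold. Short loci and values under about 20 fragments limit what can be read, and no setting replaces a second pool of larvae.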
